A study of Mus musculus with 6 samples.

Results

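Kupffer cell and macrophage marker genes, 10 in number, were followed in livers of mice given esculetin or vehicle. They comprise 6 markers of resident Kupffer cells (Adgre1, Clec4f, Vsig4, Timd4, Cd5l and Marco), 3 markers that resident and recruited macrophages share (Csf1r, Cd68 and Lyz2) and 1 marker of infiltrating monocytes (Ccr2). The complement C1q genes were left out. Each marker was found by its Ensembl identifier, and the 10 genes are part of 55357 in the count table. All 10 are protein-coding in GENCODE, and all 10 passed the filter on low counts, which left 14433 genes for testing. In GRCm39, Clec4f lies on chromosome 6 from 83621524 to 83633169, Cd68 on chromosome 11 from 69555037 to 69557067 and Ccr2 on chromosome 9 from 123901982 to 123913594.

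Livers came from wild-type male C57BL6/J mice aged 8 to 9 weeks. Every mouse was gavaged daily for 7 days, ate a control diet with 10% of its kcal from fat for 4 days and then a high-fat diet (HFD) with 60% of its kcal from fat for 3 days, so the vehicle group was also HFD-fed. Vehicle mice received 2.5% Tween-80, and the other group received esculetin, a coumarin derivative. The dose of esculetin reads 180 mg/kg/d in the titles of the samples, and the names of the count columns also carry 180. The treatment field of the labels reads 90, so no dose is attached to the values below. RNA sequencing covered 3 libraries per group. Each library pooled 2 mice, and no chow-fed group was analysed here. Library totals ranged from 27957713 to 34920922 counts, with the 3 esculetin libraries the deepest, and 3 counts were worth 0.0865 to 0.109 CPM (counts scaled for library size with TMM factors). The 6 hepatocyte markers, among them Alb and Ttr, summed to 75900 to 91640 CPM per library, so the libraries carry liver RNA as labelled.

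Kupffer cells are the macrophages that live in the sinusoids of the liver, where they clear bacteria, dying cells and aged erythrocytes from portal blood. They descend from embryonic precursors and renew themselves locally, and CSF1 or IL34 acting on CSF1R keeps them alive. Monocytes leave the bone marrow through CCR2 and can enter an injured or fatty liver, where they become macrophages that at first lack Clec4f and Timd4. In bulk tissue, fewer cells of a type and less RNA per cell cannot be told apart. All levels below are of whole liver, so those of the listed genes are not assigned to macrophages alone.

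PU.1 and C/EBP factors are the lineage factors of macrophages, so the 250 bases before the start site of the members were searched for the PU.1 core GAGGAA and the C/EBP motif TTGCNNAA on both strands, in RefSeq sequence of GRCm38.p6. Promoters of 8 of the 10 members were searched. Those of Adgre1 and Csf1r were not, so no motif result below covers these genes. The PU.1 core occurred in 4 of the 8 (Cd5l, Cd68, Marco and Vsig4), and in 23.3% of 32851 promoters of the same length. The C/EBP motif occurred in 1 of the 8, Cd68, and in 9.56% of all promoters. A match describes letters in the window and does not show a bound site. Printed below are the member promoter with a pair of PU.1 cores (Vsig4, chrX:96293439-96293688, minus strand), that of the member with the lowest p-value, which holds both motifs (Cd68, chr11:69666171-69666420, minus strand), and that of the Kupffer-cell-specific lectin Clec4f, which holds neither (chr6:83656117-83656366, minus strand). Capitals mark the matches.
Vsig4: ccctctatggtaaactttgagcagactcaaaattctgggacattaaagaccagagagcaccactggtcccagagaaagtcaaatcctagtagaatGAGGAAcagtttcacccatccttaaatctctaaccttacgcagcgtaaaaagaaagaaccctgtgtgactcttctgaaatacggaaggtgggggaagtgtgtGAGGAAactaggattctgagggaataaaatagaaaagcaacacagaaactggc
Cd68: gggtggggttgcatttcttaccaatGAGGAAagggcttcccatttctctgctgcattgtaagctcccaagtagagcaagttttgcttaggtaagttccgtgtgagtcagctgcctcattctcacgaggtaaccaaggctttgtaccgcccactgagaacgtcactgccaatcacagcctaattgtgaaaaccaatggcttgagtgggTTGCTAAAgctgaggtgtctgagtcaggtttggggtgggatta
Clec4f: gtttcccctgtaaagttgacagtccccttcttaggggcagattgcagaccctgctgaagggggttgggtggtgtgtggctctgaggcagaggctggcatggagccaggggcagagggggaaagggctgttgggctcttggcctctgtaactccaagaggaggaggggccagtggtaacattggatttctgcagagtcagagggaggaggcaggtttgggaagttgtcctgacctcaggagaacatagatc
In Vsig4 the PU.1 cores began 155 and 53 bases before the start site. In Cd68 the PU.1 core began 225 and the C/EBP match 43 bases before it.

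Across the 10 markers, few differences between esculetin and vehicle livers were detected, in shares near those over all genes tested. With 3 libraries per group, larger differences are not excluded. The 95% intervals of Cd68 (fold down to 0.626), Marco (up to 1.54) and Ccr2 (up to 1.90) reached past 1.5-fold. With edgeR's quasi-likelihood test, 0 of the 10 passed both thresholds of the study, which were a fold change over 1.5 with an unadjusted p under 0.05 (background 3.13% of the 14433 genes tested). The count was also 0 with DESeq2 and with limma-voom. An unadjusted p-value under 0.05 was reached by 1 member, Cd68 (background 11.9%), and a Benjamini-Hochberg adjusted p-value under 0.05 by 0 (background 0.0416%). Fold changes were under 1.2 in either direction for 8 of the 10 markers (background 71.8%). Of the 10, 8 had lower and 2 had higher fitted means with esculetin, and the median log2 fold change was -0.11, beside -0.01 over all genes tested. Replicates were pools of different mice, so p-values measure the spread between such pools.

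**Figure D1:**
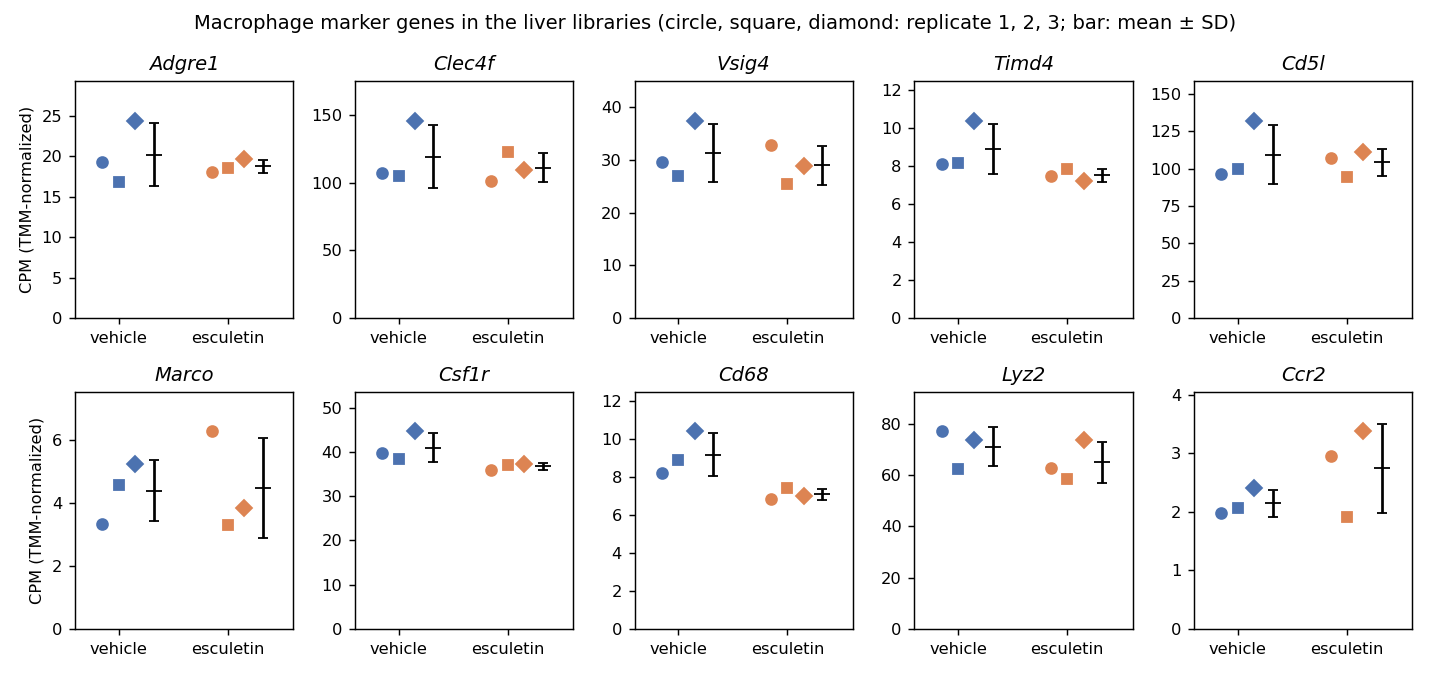
Level of each of the 10 markers in TMM-normalized CPM in the 3 vehicle and 3 esculetin libraries, one panel per gene, with points for libraries and bars for the mean and SD. The groups overlap for 7 genes, and for Timd4, Csf1r and Cd68 every esculetin library lies below every vehicle library.

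The resident markers span a wide range of levels. Per kilobase of exon, the secreted scavenger protein gene Cd5l was the highest marker, at 52.4 ± 6.84 CPM per kb (SD over 6 libraries), followed by Clec4f at 31.2 ± 4.52. Lyz2 (20.4 ± 2.33) and Vsig4 (20.3 ± 2.94) came next, with overlapping ranges. Cd68 (5.93 ± 0.989), Adgre1 (5.53 ± 0.744) and Csf1r (5.28 ± 0.426) followed, and each range overlapped the next. Marco (2.30 ± 0.61) and Timd4 (2.07 ± 0.286) also overlapped. The infiltrating marker Ccr2 was last at 0.361 ± 0.0884 CPM per kb, and each of its 6 libraries was below the lowest Timd4 library.

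Among the resident markers, Clec4f encodes a galactose-binding lectin found on mouse Kupffer cells and on few other cells. Its levels were 107, 105 and 146 CPM in the vehicle libraries and 102, 123 and 109 CPM in the esculetin libraries. The third vehicle library was the highest, and the other 5 lay close together with the groups interleaved. The log2 fold change was -0.10 (SE 0.13, 95% interval -0.40 to 0.19, unadjusted p = 0.448, adjusted p = 0.804, edgeR). On the linear scale this interval runs from 0.760 to 1.14.

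Adgre1 encodes F4/80, the classical surface marker of mouse tissue macrophages. It stood at 19.3, 16.8 and 24.4 CPM with vehicle and at 18.1, 18.6 and 19.6 CPM with esculetin. Vehicle libraries held both the lowest and the highest value. This gave a log2 fold change of -0.11 (SE 0.13, adjusted p = 0.804, edgeR), with a 95% interval for the fold of 0.757 to 1.14.

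Vsig4 encodes CRIg, the complement receptor with which Kupffer cells take up opsonized bacteria from blood. Vehicle libraries held 29.7, 26.9 and 37.5 CPM and esculetin libraries 32.7, 25.3 and 28.8 CPM. The groups overlapped, again with the third vehicle library on top. Its log2 fold change was -0.11 (SE 0.14, adjusted p = 0.794, edgeR).

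Cd5l encodes AIM, a secreted protein that binds lipid and marks macrophages in which LXR is active. Its levels were 96.5, 99.8 and 132 CPM with vehicle and 107, 94.3 and 111 CPM with esculetin. The third vehicle library was the highest, and the groups overlapped. Of the 10 markers only Marco had a smaller log2 fold change than the -0.07 of Cd5l (SE 0.12, adjusted p = 0.864, edgeR).

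Timd4 encodes the phosphatidylserine receptor TIM4, which binds dying cells and is gained late by macrophages that replace Kupffer cells. It stood at 8.10, 8.16 and 10.4 CPM with vehicle and at 7.49, 7.87 and 7.20 CPM with esculetin. Every esculetin library was below every vehicle library, by a narrow margin for the first and second vehicle libraries. The log2 fold change was -0.24 (SE 0.14, 95% interval -0.56 to 0.08, unadjusted p = 0.124, adjusted p = 0.553, edgeR), so the interval included 0.

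Marco encodes a class A scavenger receptor for bacteria and particles. Its levels were 3.34, 4.57 and 5.25 CPM with vehicle and 6.28, 3.32 and 3.85 CPM with esculetin. The first esculetin library was the highest and the second the lowest of the 6, so the esculetin group enclosed the vehicle group. Marco had a log2 fold change of 0.03 (SE 0.26, adjusted p = 0.979, edgeR) with a 95% interval for the fold of 0.677 to 1.54, the widest among the resident markers. Its direction was not stable, with -0.29 without the first esculetin library and -0.13 without the first vehicle library.

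**Figure D2:**
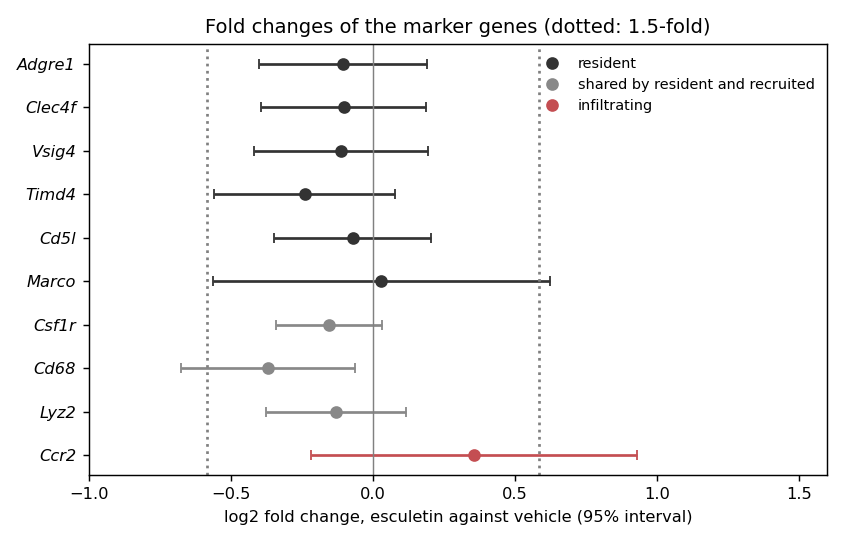
Log2 fold change of each marker, esculetin minus vehicle, with its 95% interval from edgeR's quasi-likelihood fit. The interval of Cd68 (-0.68 to -0.06) is the one that does not include 0, and those of Marco and Ccr2 are the widest.

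Library by library, the 6 resident markers summed to 264, 261 and 356 CPM with vehicle and to 274, 272 and 280 CPM with esculetin. The third vehicle library thus stood above the other 5, which lay within a narrow band. It was the highest of the 6 libraries for 5 of the 6 resident markers and for 7 of the 10 members, and the exceptions were Marco, Lyz2 and Ccr2. Lower means with esculetin among the resident markers rested on it. Without it, the median log2 fold change of the 6 moved from -0.10 to 0.06, and Adgre1, Clec4f, Vsig4 and Cd5l turned to positive values of up to 0.09. Timd4 kept a negative value, -0.11, and Marco stood at 0.18. The endothelial hyaluronan receptor gene Lyve1 was also highest in this library, at 26.1 CPM against 14.7 to 18.1 in the other 5, and so was the stellate and fibroblast collagen gene Col3a1, at 60.1 against 26.7 to 42.0 CPM. Most genes of their lists were not: the same held for only 2 of 9 sinusoidal endothelial markers (Lyve1 and Stab2) and 2 of 8 stellate markers (Col1a1 and Col3a1). The summed levels of the 9 sinusoidal endothelial markers (220.3 to 260.6 CPM with vehicle, 234.5 to 263.4 with esculetin) and of the 8 stellate markers (423.3 to 488.3 and 379.9 to 499.2 CPM) overlapped between groups, and both were highest in an esculetin library. Of the 8 stellate markers, 3 had higher and 5 had lower means with esculetin (median log2 fold change -0.06), and 1 passed both thresholds (background 3.13%). This was Des, the desmin gene, which rose from 1.87, 1.72 and 1.90 CPM to 2.39, 3.43 and 3.02 CPM (log2 fold change 0.69, SE 0.22, unadjusted p = 0.0114, adjusted p = 0.273, edgeR). The part of these cells in the result was not tested.

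The macrophage markers shared by resident and recruited cells were each lower on average with esculetin, and the nominal difference was in Cd68, which encodes a glycoprotein of macrophage lysosomes. Cd68 stood at 8.21, 8.87 and 10.4 CPM with vehicle and at 6.84, 7.41 and 6.99 CPM with esculetin. All esculetin libraries were below all vehicle libraries, and the esculetin values were the more tightly grouped (7.08 ± 0.295 against 9.16 ± 1.12 CPM, SD, n = 3 each). The log2 fold change was -0.37 (SE 0.14, 95% interval -0.68 to -0.06, unadjusted p = 0.0225, adjusted p = 0.337, edgeR), a fold of 0.774 that was short of the threshold of 1.5. Its unadjusted p was 0.0911 without the third vehicle library, 0.0556 without the first esculetin library and 0.051 without the third esculetin library.

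Csf1r encodes the receptor for CSF1 and IL34, on which Kupffer cells depend. Its levels were 39.8, 38.4 and 44.7 CPM with vehicle and 35.9, 37.1 and 37.3 CPM with esculetin. Every esculetin library lay below every vehicle library, with the second vehicle library close to the esculetin range. Csf1r had a log2 fold change of -0.15 (SE 0.084, 95% interval -0.34 to 0.03, unadjusted p = 0.0944, adjusted p = 0.504, edgeR). In GRCm39 the exons of Csf1r overlap those of Hmgxb3 on the opposite strand over 19.8% of their length, and reads from this stretch may belong to either gene, since strand use in counting is not given in the sources used here. Hmgxb3 itself had a log2 fold change of -0.13 (SE 0.15, adjusted p = 0.778, edgeR).

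Lyz2 encodes lysozyme of macrophages and neutrophils. It stood at 77.0, 62.4 and 73.6 CPM with vehicle and at 62.8, 58.3 and 73.7 CPM with esculetin. The groups overlapped, with the third esculetin library level with the third vehicle library. The log2 fold change was -0.13 (SE 0.11, adjusted p = 0.690, edgeR). Of the 100-base stretches of its transcript, 9.66% also occur in its paralog Lyz1 or the antisense gene Gm67237, so its counts carry that uncertainty. Lyz1 held 70 counts over the 6 libraries, beside 12823 for Lyz2.

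In all, the groups did not overlap for 3 of the 10 markers, Timd4, Csf1r and Cd68 (background 17.4%), and each of the 3 was lower with esculetin (background 8.24%).

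Ccr2, the infiltrating marker, encodes the chemokine receptor of inflammatory monocytes. Its levels were 1.97, 2.06 and 2.41 CPM with vehicle and 2.95, 1.90 and 3.37 CPM with esculetin. The first and the third esculetin libraries were above all vehicle libraries, and the second was below them. The log2 fold change was 0.35 (SE 0.26, 95% interval -0.22 to 0.93, unadjusted p = 0.197, adjusted p = 0.632, edgeR), which allows a fold from 0.859 to 1.90. Ccr2 rested on 465 counts over the 6 libraries, the fewest among the members. Without the second esculetin library its log2 fold change was 0.56 (unadjusted p = 0.0407). The MHC class II gene H2-Ab1, named after its values were seen, was likewise highest in the first and the third esculetin libraries, with 20.5, 15.7 and 17.2 CPM with vehicle and 25.0, 17.7 and 30.0 CPM with esculetin, and its part in the Ccr2 values was not tested.

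Resident and infiltrating markers were set against each other within each library, as a description without a test. The mean log2 CPM of the 6 resident markers exceeded the log2 CPM of Ccr2 by 3.52, 3.49 and 3.68 with vehicle and by 3.11, 3.55 and 2.81 with esculetin. The difference was smaller in the first and the third esculetin libraries, while the second lay within the vehicle range, so the groups overlapped. The group means were 3.56 ± 0.10 and 3.16 ± 0.37 (SD, n = 3 each), or -0.41 on the log2 scale for esculetin minus vehicle. The SD of log2 CPM was 0.15 with vehicle and 0.42 with esculetin for Ccr2, and 0.24 and 0.09 for the resident mean.

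A wider list of 12 genes of monocytes and monocyte-derived macrophages, of which 9 passed the filter, was compared in the same way. The resident mean exceeded the mean of these 9 genes by 3.76, 3.60 and 3.82 with vehicle and by 3.39, 3.48 and 3.38 with esculetin, and the groups did not overlap. This separation rested on the genes of lowest count. With the 7 genes that had at least 10 counts in every library, which left out F13a1 and Ly6c1, the values were 2.69, 2.77 and 3.09 with vehicle and 2.80, 2.84 and 2.51 with esculetin, the groups overlapped, and the difference shrank from -0.31 to -0.13.

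**Figure D3:**
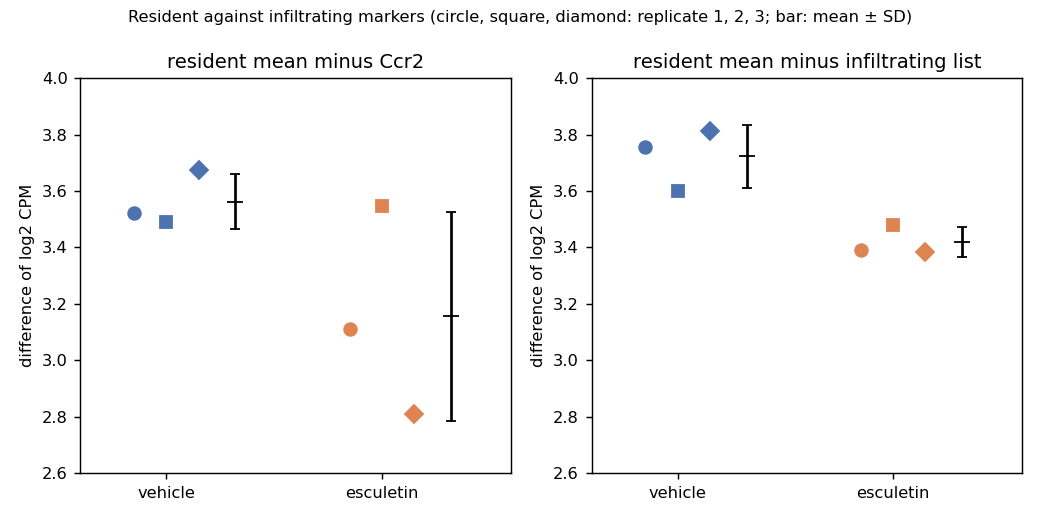
Mean log2 CPM of the 6 resident markers minus the log2 CPM of Ccr2, and minus the mean of 9 genes of the infiltrating list, in each of the 6 libraries. The second esculetin library lies within the vehicle range for Ccr2, and the groups do not overlap for the list, a separation that was lost with the 7 genes of at least 10 counts in every library.

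Genes of the infiltrating list differed widely in level. Of the 9 tested, 1 passed both thresholds, Ly6c1, which endothelial cells also express (log2 fold change 1.34, SE 0.59, unadjusted p = 0.0436, adjusted p = 0.400, edgeR). It stood at 0.068, 0.123 and 0.292 CPM with vehicle and at 0.373, 0.490 and 0.358 CPM with esculetin. It rested on 55 counts over the 6 libraries and reached the minimum of the expression filter only in the esculetin libraries, so it had to differ to be tested, and nothing is read from its call. The call held with limma-voom, median-of-ratios size factors, total counts and without the third vehicle library, and was lost in every other alternative run, among them DESeq2 (unadjusted p = 0.0839), no filter on low counts (0.0771) and each other library left out. The monocyte surface gene Ly6c2 had a log2 fold change of -0.26 (SE 0.37, adjusted p = 0.826), and the integrin gene Itgam one of 0.12 (SE 0.43, adjusted p = 0.945), both by edgeR. Plac8, expressed in monocytes and other leukocytes, stood at 8.89, 8.59 and 9.74 CPM with vehicle and at 9.45, 10.4 and 12.1 CPM with esculetin (log2 fold change 0.23, SE 0.13, adjusted p = 0.528, edgeR), with overlapping groups. Fn1, fibronectin, was the highest of the list at 1305 to 1524 CPM, a gene that hepatocytes also express, with a log2 fold change of -0.02 (SE 0.087, adjusted p = 0.949, edgeR). Chil3, S100a4 and Vcan had too few counts to be tested.

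The ligands of CCR2 were near the detection limit. Ccl2 stood between 0.204 and 0.717 CPM with overlapping groups (log2 fold change 0.36, SE 0.51, adjusted p = 0.829, edgeR), and Ccl7, Ccl8 and Ccl12 were not tested, with 12, 10 and 9 counts over the 6 libraries. Among the other recruiting chemokines, Cxcl10 was the highest, at 3.43 to 4.57 CPM, and of the 4 genes tested in this list, Ccl2 included, 0 had an unadjusted p-value under 0.05 by edgeR (background 11.9%). Of the CSF1R ligands, Csf1 had a log2 fold change of -0.03 (SE 0.23, adjusted p = 0.974, edgeR). Il34 had one of -0.41 (SE 0.54, adjusted p = 0.812, edgeR) and ranged from 0.435 to 1.97 CPM.

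Other genes of resident Kupffer cells were counted in the same way. Of 9, among them the haemoglobin scavenger receptor Cd163 and the iron exporter Slc40a1, 0 had an unadjusted p-value under 0.05 by edgeR (background 11.9%) and the median log2 fold change was -0.01. Slc40a1 was the highest, at 129 to 191 CPM. Cd163, like most resident markers, was highest in the third vehicle library, with 16.4, 14.3 and 28.3 CPM with vehicle and 17.6, 16.7 and 18.1 CPM with esculetin.

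Of 12 transcription factors of Kupffer cells and macrophages, 1 passed the thresholds (background 3.13%). Cebpb, which encodes a bZIP factor of both hepatocytes and myeloid cells, rose from 24.9, 35.6 and 30.2 CPM to 53.7, 43.4 and 40.3 CPM (log2 fold change 0.60, SE 0.14, unadjusted p = 0.00211, adjusted p = 0.175, edgeR). Its fold was near the threshold, and it was not called with total counts (0.57), without the first vehicle library (0.48) or without the first esculetin library (0.47). Id1, which encodes an inhibitor of bHLH factors, had a log2 fold change of 0.76 (SE 0.39, unadjusted p = 0.0783, adjusted p = 0.481, edgeR) and was called higher with DESeq2, without the filter on low counts, and without the first vehicle or the second esculetin library. Spi1, which encodes PU.1, stood at 3.34, 3.13 and 4.70 CPM with vehicle and at 4.10, 4.09 and 3.76 CPM with esculetin, and Nr1h3, encoding LXR alpha, had a log2 fold change of 0.07 (SE 0.080, adjusted p = 0.794, edgeR). Cebpa was the highest of the list, at 239 to 294 CPM.

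Among 22 genes of lysosomes, Fc receptors and myeloid cells, 0 passed both thresholds (background 3.13%), and 4 had an unadjusted p-value under 0.05 (background 11.9%). Those with higher means were Aif1, encoding IBA1 (log2 fold change 0.36, SE 0.14, unadjusted p = 0.0313, adjusted p = 0.368), and H2-Ab1 (0.44, SE 0.18, unadjusted p = 0.0341, adjusted p = 0.376). Those with lower means were the leukocyte phosphatase gene Ptprc (-0.30, SE 0.11, unadjusted p = 0.0201, adjusted p = 0.321) and the efferocytosis receptor gene Mertk (-0.28, SE 0.11, unadjusted p = 0.0324, adjusted p = 0.372), all by edgeR. None of the 4 was under 0.05 throughout when single libraries were left out, with p up to 0.109 for Aif1 (without the first esculetin library), 0.152 for H2-Ab1 (the third esculetin library), 0.0662 for Ptprc (the second esculetin library) and 0.153 for Mertk (the first vehicle library). H2-Ab1 passed both thresholds without the second esculetin library (0.63, unadjusted p = 0.0017). Lamp2 was the highest of the list, at 849 to 958 CPM. Across the 22 genes, 17 had higher and 5 had lower means with esculetin (background 6993 higher of 14433 tested). Their median log2 fold change was 0.09, opposite in sign to that of the 10 members (-0.11).

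Larger differences in the macrophage lists lay outside the members. Of 15 tested genes of scavenger receptors and lipid handling, 2 passed both thresholds, and both fell (background of lower calls 1.76%). Fabp5, which encodes a fatty-acid-binding protein of many cell types, fell from 61.0, 71.3 and 105 CPM to 37.9, 31.4 and 31.7 CPM (log2 fold change -1.23, SE 0.18, unadjusted p = 4.8e-05, adjusted p = 0.0629, edgeR). Spp1, encoding osteopontin and also made by cholangiocytes, fell from 34.7, 57.7 and 75.5 CPM to 39.1, 23.7 and 37.3 CPM (-0.75, SE 0.26, unadjusted p = 0.0174, adjusted p = 0.309, edgeR), with overlapping groups. It was not past the p threshold without the third vehicle library (-0.47, unadjusted p = 0.0851) or without the second esculetin library (-0.55, unadjusted p = 0.0657). The lipase gene Lpl had a log2 fold change of -0.50 (SE 0.15, unadjusted p = 0.00702, adjusted p = 0.246, edgeR), just under a fold of 1.5 and so not called, though it was called without the third esculetin library. Scarb2 was the highest of the list, at 298 to 339 CPM.

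Of 10 cytokine and activation genes, 5 were tested and 1 passed both thresholds (background 3.13%, and 1.76% for lower calls). Il1b, which encodes interleukin 1 beta, fell from 5.52, 3.50 and 1.82 CPM to 1.15, 0.548 and 0.776 CPM (log2 fold change -2.13, SE 0.42, unadjusted p = 0.000551, adjusted p = 0.135, edgeR). Every esculetin library was below every vehicle library, and the vehicle libraries were spread. The third vehicle library, which was high for the resident markers, was the lowest vehicle library for Il1b. Nos2 held 0 counts in all libraries.

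**Figure D4:**
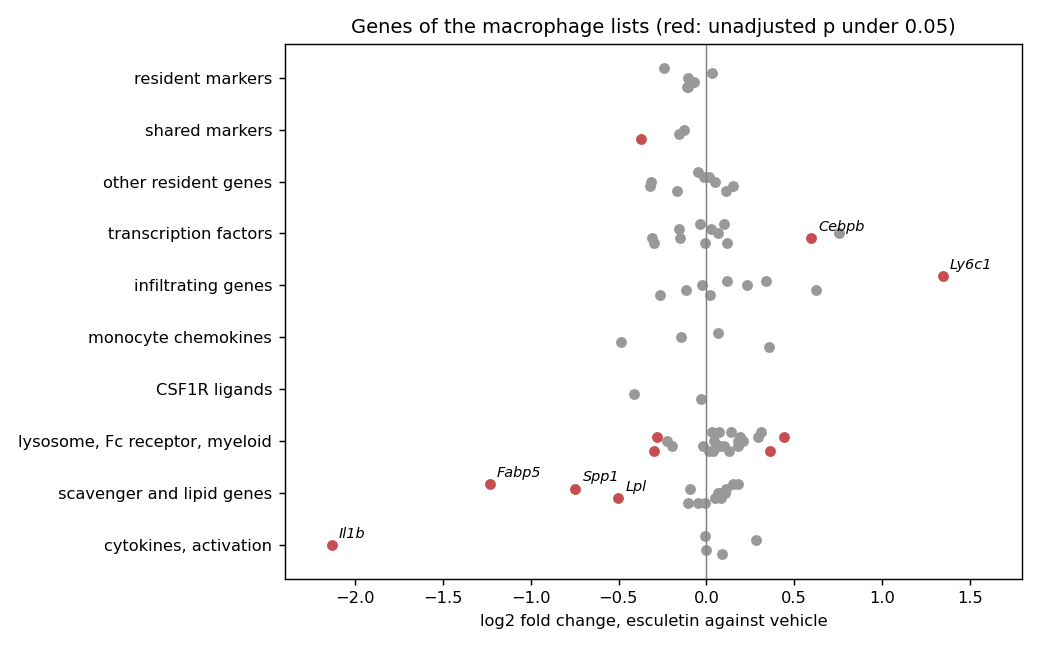
Log2 fold change, esculetin minus vehicle from edgeR, of the tested genes of the macrophage lists and of the members other than Ccr2, one row per list, with red points for an unadjusted p under 0.05. Most genes lie close to 0, and those past both thresholds are Cebpb and Ly6c1 (tested only through its esculetin counts) above 0 and Fabp5, Spp1 and Il1b below it.

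Of the markers of other blood cells, 4 passed both thresholds, all higher with esculetin: Cd79a and Klrb1c among 6 tested lymphocyte markers, S100a9 among 3 tested neutrophil markers and Hba-a2 among 4 haemoglobin genes (background of higher calls 1.37%). The B cell gene Cd79a stood at 0.272, 0.368 and 0.511 CPM with vehicle and at 1.31, 0.692 and 0.508 CPM with esculetin (log2 fold change 1.12, unadjusted p = 0.0422, adjusted p = 0.398, edgeR). For the NK cell gene Klrb1c (1.23, unadjusted p = 0.0337, adjusted p = 0.375) and for Hba-a2 (0.79, unadjusted p = 0.0403, adjusted p = 0.393) the 3 esculetin libraries were the highest, and S100a9 (0.99, unadjusted p = 0.0444, adjusted p = 0.403) overlapped, all by edgeR. Klrb1c reached the minimum of the expression filter only in the esculetin libraries, so its call was favoured by the filter. Csf3r, the neutrophil growth factor receptor gene, had the opposite sign, with 1.77, 1.66 and 1.97 CPM with vehicle and 1.34, 1.18 and 1.58 CPM with esculetin (-0.39, adjusted p = 0.582, edgeR). All 4 haemoglobin genes had higher means with esculetin, and Hba-a1 and Hba-a2 are near-identical copies whose counts are uncertain. In sums per library the first esculetin library stood out. The 8 lymphocyte markers summed to 5.88 CPM in the first esculetin library and to 2.54 to 3.17 CPM in the other 5, the 4 haemoglobin genes to 102.7 CPM in that library and to 38.2 to 64.2 CPM elsewhere, and the 6 neutrophil markers to 6.06 CPM there and to 2.97 to 4.60 CPM elsewhere. Ly6g, the defining neutrophil marker, was at 0 counts in all 6 libraries. The same library was the highest for Marco and the second highest for Ccr2, and the part of these cells in those values was not tested. The 6 dendritic cell markers summed to 8.50 to 10.8 CPM with vehicle and to 8.64 to 10.7 CPM with esculetin. The 5 cholangiocyte markers summed to 39.5 to 80.4 and 30.3 to 45.7 CPM, and most of these sums was Spp1. The other 4 (Krt19, Krt7, Epcam and Sox9) had log2 fold changes of 0.06 to 0.63 with overlapping groups, and none of the 4 had an unadjusted p-value under 0.05 by edgeR.

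The resident markers moved together across the libraries to different degrees. Pearson's r of each with the mean of the other 5, over 6 libraries that share depth and composition and given as a description, was 0.909 for Cd5l, 0.884 for Vsig4, 0.739 for Adgre1, 0.716 for Timd4, 0.573 for Clec4f and 0.376 for Marco. Marco also had the largest spread (SD 0.37 on the log2 scale, against 0.18 to 0.20 for the other 5). Among 12168 other genes with at least 1 CPM, the 10 whose pattern was most like the resident mean were Tbc1d16 (r = 0.998), Car1, Saal1, F2r, Cav1, Gcnt4, Galnt7, Adcy9, Cfhr4 and Sh3bp2 (r = 0.969). With so few libraries, 65 of these genes (0.534%) had an r of at least 0.9. Of the listed genes, the endothelial Lyve1 (r = 0.956) and the Kupffer cell gene Cd163 (r = 0.921) were among them. The resident mean log2 CPM was 4.98 in the third vehicle library and 4.52 to 4.70 in the others. These r values therefore lean on that library, and r without it was not computed.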

How the data were processed

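Liver RNA was sequenced in 3 vehicle and 3 esculetin libraries. The submitters' processing notes name HISAT2 2.2.1, featureCounts and the builds GRCm39 and mm10. The deposited values are whole-number counts per gene, which the authors did not normalize. The annotation release, strand use and treatment of multi-mapped reads are not given in the sources used here. Of genes with 1 to 20 counts, 69.3% to 70.9% held even counts in each library, so refits on halved counts were added.

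Symbols and exon lengths came from GENCODE M39 on GRCm39, and promoters from RefSeq on GRCm38.p6. Counts were filtered (filterByExpr), TMM-normalized and tested two-sided with edgeR 4.0.16 (glmQLFit, glmQLFTest, R 4.3.3) over all genes, with Benjamini-Hochberg adjustment. The standard error is the log2 fold change over the square root of F. Calls needed an unadjusted p under 0.05 and a fold change over 1.5. The log2 CPM values used a prior count of 2. Alternatives were DESeq2 1.42.0, limma-voom (limma 3.58.1), other scalings and filters, each library left out, and a replicate block. The gene test was tested on simulated data.

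Members and lists were chosen with earlier results of these data known. Besides the members, genes named were those of the macrophage lists with an unadjusted p under 0.05 (at most 3 per list), the highest gene of each list, receptor ligands, paralogs and the 10 genes most like the resident mean. The values of 2 genes that this rule names are not reported here. Others, among them Ly6c2, Itgam, Plac8, Id1, Spi1, Nr1h3, Des, Cd79a, Klrb1c, S100a9, Csf3r, Hba-a2, Krt19, Krt7, Epcam, Sox9, Stab2, Col1a1, Cd163, Lyve1, Col3a1 and Nos2, were named after their values were seen. Same-numbered libraries hold different mice, and their deviations correlated at -0.104, -0.04 and 0.02, so the numbers do not pair them. The lowest chi-square per gene between replicate libraries was 26.2, so none was a copy.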

Additional observations from a re-analysis of the deposited data

How the results depend on the processing

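With every alternative run, 0 of the 10 members passed both thresholds. Leaving out 1 library at a time gave 0 to 2 members with an unadjusted p under 0.05. It was 0 without vehicle library 3, esculetin library 1 or esculetin library 3, and 2 without esculetin library 2, where Ccr2 joined Cd68. The median log2 fold change of the resident markers then ranged from -0.20 to 0.06, resident minus Ccr2 from -0.60 to -0.23, and resident minus the infiltrating list from -0.37 to -0.26. The list difference moved from -0.31 to -0.13 with the 7 genes of at least 10 counts in every library, an alternative chosen after seeing the data, because 2 low-count genes were dropped. Genes of the macrophage lists called higher numbered 2, and 1 with total counts, with at least 10 counts in every library (Ly6c1 dropped) and with halved counts, which were also added after seeing the data. Without the filter on low counts they numbered 3, namely Cebpb, Id1 and Il6, the last with 10 counts over the 6 libraries. Leaving out single libraries gave 0 to 3 called higher and 2 to 4 called lower, against 3. Over all genes, 452 calls became 776 without the filter, which tests more low-count genes, and 411 to 588 with 1 library left out. The adjusted p-value was under 0.05 for 6 genes, 193 with DESeq2, 477 without the filter and 2 to 45 with a library left out. Unadjusted p-values of Fabp5, Il1b and Cebpb were 9.78e-13, 1.46e-07 and 8.13e-05 with DESeq2. With limma-voom they were 6.61e-05, 0.00233 and 0.00216, so the strength of these 3 results depended on the tool. The cause of these shifts was not tested. With the replicate block, which only shares numbers between different mice, the median of the resident markers was -0.09, Cd68 was at -0.36 (unadjusted p = 0.0368), 399 genes were called and 15 had an adjusted p-value under 0.05. The block also ended the call of Ly6c1 (1.41, unadjusted p = 0.0629) and added one of Id1. Adgre1, Clec4f, Vsig4 and Cd5l, none of them called, changed sign without vehicle library 3. Halving the counts left Ccr2 at 0.34 (unadjusted p = 0.209) and Marco at 0.03 (unadjusted p = 0.916). In the main fit, on unhalved counts, their 95% intervals held folds from 0.859 to 1.90 and from 0.677 to 1.54.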
